A study of Mus musculus with 16 samples.

Results

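The cytochrome P450 genes were described here in RNA sequencing libraries of mouse hepatocytes. Members were the protein-coding genes whose symbol is Cyp followed by a number, a letter and a number, which took 93 of the 22046 protein-coding genes, and of the 54532 genes of any type, in the deposited table. The 16 libraries formed 5 groups by their labels. Hepatocytes were cultured alone (n = 3), with cancer cells wild type (WT) for Phgdh (n = 3), with Phgdh knockout (KO) cancer cells (n = 3), with WT cells and a CXCR2 inhibitor (CXCR2i, n = 3), or with KO cells and the inhibitor (n = 4). Phgdh is the enzyme that commits glucose carbon to serine, and CXCR2 is a receptor for neutrophil-attracting chemokines. The series' design text names the cancer cells as HY19636 and describes them, not the hepatocytes, as the material sequenced, and the labels were followed. The labels put "mouse hepatocytes" in the cell line field and give no age, sex or strain, no dose, vehicle or duration, and no statement of how hepatocytes and cancer cells were kept apart or separated. The inhibitor was never given in the absence of cancer cells, and the KO cells are not said to be more than 1 clone. Replicates are not described as separate cultures, and p-values therefore cover only the spread between these libraries.

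P450 enzymes are haem proteins that insert an oxygen atom into lipophilic molecules, with electrons passed on by P450 oxidoreductase or cytochrome b5 at the endoplasmic reticulum and by ferredoxin in mitochondria. In liver, members of families Cyp1 to Cyp3 oxidise drugs and other foreign compounds, Cyp4 members hydroxylate fatty acids and eicosanoids, and single members turn cholesterol into bile acids. Their transcription in hepatocytes depends on liver-enriched factors such as HNF4A and C/EBP alpha and on ligand-activated receptors such as the aryl hydrocarbon receptor and the pregnane X receptor, and it is known to drop when hepatocytes are kept in culture.

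Each library held 15.0 to 21.3 M fragments, and a transcript of 1 kb with 3 fragments had 0.137 to 0.194 FPKM (fragments per kilobase and per M fragments), so values below that level rest on a handful of fragments. Of 15 hepatocyte markers, 14 had a mean of at least 1 FPKM, but their summed level was 323 to 326 FPKM alone, 174 to 197 in WT and 204 to 219 in KO co-culture, and 1027 to 1039 and 1302 to 1358 with the inhibitor. Markers of bile duct and progenitor cells summed to 1225 to 1244 FPKM alone, 411 to 434 and 428 to 448 in WT and KO co-culture, and 556 to 565 and 554 to 602 with the inhibitor. Spp1 was the largest part of this sum in every group. It averaged 1016 FPKM alone, 315 and 319 in WT and KO co-culture, and 258 and 261 with the inhibitor. The other members did not all follow it. Krt19 and Krt7 averaged less in co-culture than alone and most with the inhibitor, with Krt19 at 96.9 FPKM alone and 193 and 195 with the inhibitor. Cftr was lowest with the inhibitor. The pancreatic epithelium list summed to 121 to 127 FPKM alone, 36.5 to 43.2 and 41.2 to 47.9 in the WT and KO co-cultures, and 204 to 230 and 210 to 231 with the inhibitor, with Tff1 and Agr2 at 0 throughout. Its largest contributor was Krt19, which the bile duct list also holds. Stellate, endothelial and neutrophil lists stayed at or under 0.42 FPKM in every library, and the Kupffer list at 0.50 to 1.58 FPKM without and 4.01 to 5.75 with the inhibitor, with Adgre1, Clec4f and Marco at 0. Its rise lay in Cd68, which averaged 0.690 FPKM alone, 1.34 and 1.03 in co-culture and 4.96 and 4.28 with the inhibitor. Ptprc and Csf1r averaged at most 0.112 and 0.0443 FPKM in any group.

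Few P450 genes were expressed, and more were detected in the libraries with the inhibitor. At a group mean of at least 1 FPKM, 15 members were expressed in hepatocytes alone, 11 in WT co-culture, 12 in KO co-culture, 22 in WT co-culture with the inhibitor and 26 in KO co-culture with it. In all, 27 of 93 members (29.0%) reached that level in at least 1 group, against 48.5% of the other protein-coding genes. Across the same 5 groups the share of other protein-coding genes at 1 FPKM lay between 45.0% and 46.5%. A mean of at least 1 FPKM over the 16 libraries, the level needed to enter the test, was reached by 21 members. Another 11 had a mean of at least 0.5 FPKM in at least 1 group, 39 were lower but above 0 in some library, and 22 were at 0 in every library. The lowest tested means were 1.08 FPKM for Cyp3a16 and 1.14 for Cyp2d26, and the highest untested ones were 0.950 for Cyp1b1 and 0.887 for Cyp3a44.

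**Figure D1:**
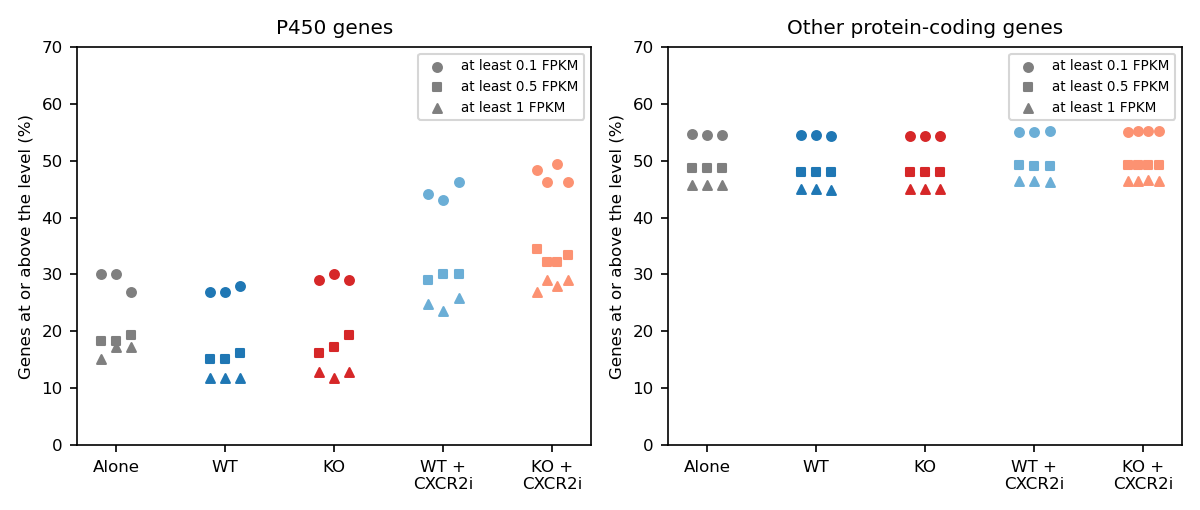
Share of P450 genes (left) and of the other protein-coding genes (right) at or above 0.1, 0.5 and 1 FPKM in each library, by group; each point is 1 library and the vertical axis is in percent. The P450 share is higher in the 7 libraries with the inhibitor at each level, while the other protein-coding genes lie between about the same bounds in all 5 groups.

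Several P450 genes known from adult liver were low in every library. Cyp2e1, which oxidises ethanol, did not exceed 0.330 FPKM in any library, Cyp2c29 0.180, Cyp2f2 0.176 and Cyp2b10 0.130. Of the classical bile acid pathway, Cyp7a1, its rate-limiting enzyme, did not exceed 0.0114 FPKM and Cyp8b1 0.141. These genes were chosen after their values were seen, as textbook liver P450s. Members of the steroid-producing Cyp11 and Cyp19 families were at 0 in all libraries, as was Cyp2r1, a vitamin D hydroxylase. By chromosome, 5 of 18 members on chromosome 19 reached 0.5 FPKM in a group, 4 of 16 on chromosome 4, 2 of 15 on chromosome 7, 7 of 11 on chromosome 17, 4 of 10 on chromosome 15 and 5 of 8 on chromosome 5.

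Summed over the 93 members, P450 transcripts amounted to 128 to 129 FPKM in hepatocytes alone, 189 to 204 in WT and 206 to 218 in KO co-culture, and 306 to 312 and 350 to 365 in the WT and KO co-cultures with the inhibitor. The groups' ranges did not overlap. As a share of all fragments this was 0.0346% to 0.0348% alone and 0.104% to 0.108% in the KO co-culture with the inhibitor. In bulk libraries, fewer expressing cells and less RNA per cell cannot be told apart. The order of the leading members differed by group. Cyp20a1, a P450 with no established substrate, led in hepatocytes alone at 32.2 ± 0.716 FPKM (mean ± SD), above Cyp2j6 at 15.3 ± 0.463, Cyp39a1 at 15.0 ± 0.407 and Cyp3a13 at 14.4 ± 0.255, whose SDs left little between the last 3. In KO co-culture Cyp3a13 led at 57.9 ± 3.30 FPKM. With the inhibitor Cyp39a1 and Cyp3a13 came first and second beside both genotypes, at 57.0 ± 2.81 and 55.5 ± 1.47 FPKM beside WT cells, which overlapped, and at 65.4 ± 2.38 and 63.9 ± 1.63 beside KO cells, which overlapped as well.

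**Figure D2:**
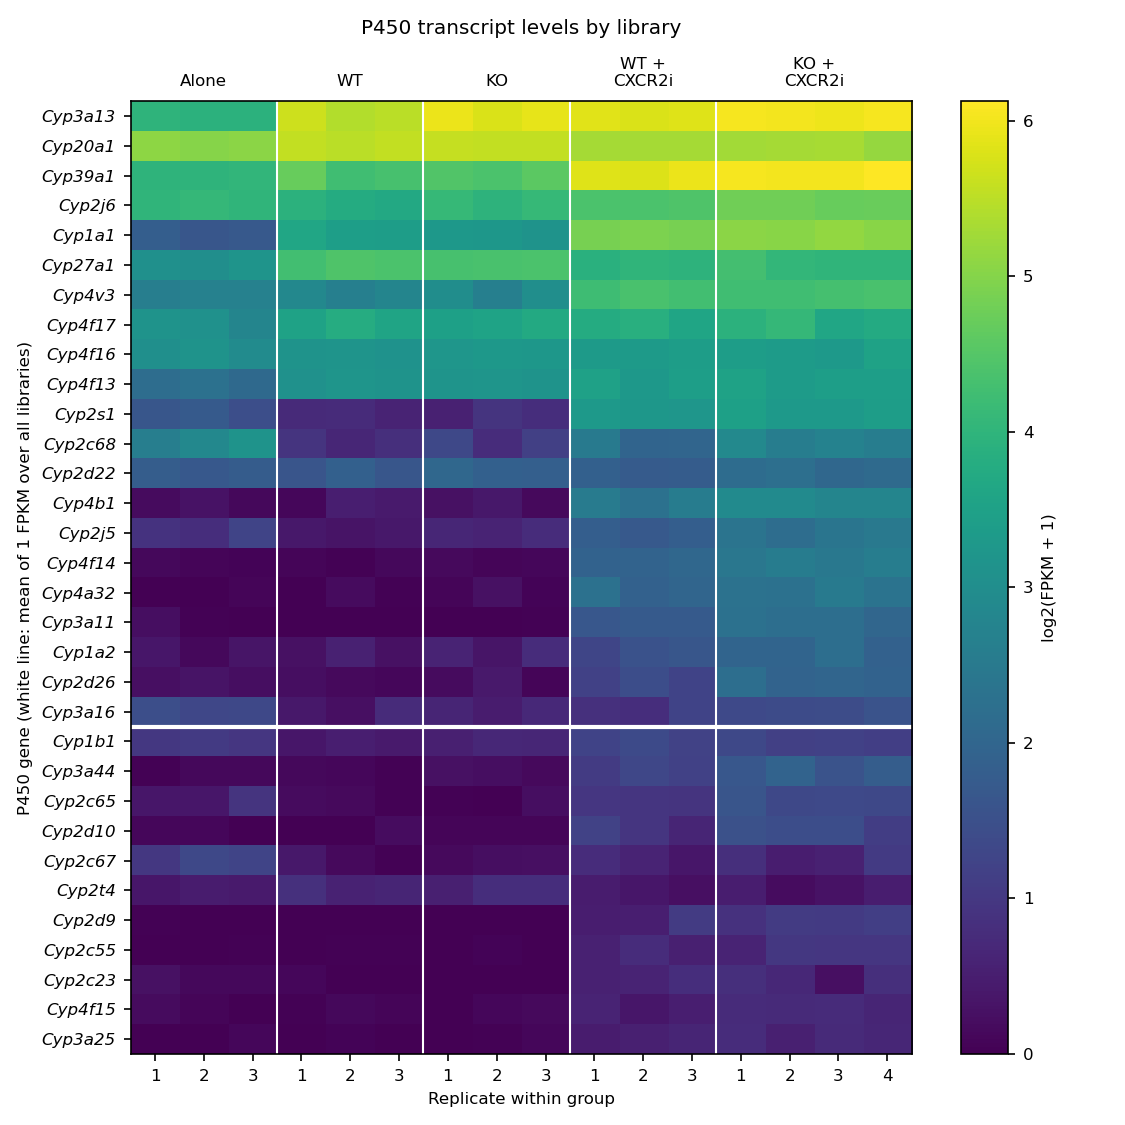
Levels of the 21 tested members (above the white line) and the 11 further members that reached 0.5 FPKM in a group (below it), as log2(FPKM + 1) in colour, in each of the 16 libraries (columns, by group and replicate). Rows such as Cyp4b1, Cyp4f14, Cyp4a32 and Cyp3a11 are near 0 in the 9 libraries without the inhibitor and above 1 on this scale in the 7 with it, while Cyp20a1 and Cyp4f16 vary little.

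Upstream sequences are shown for 5 members that carry the contrasts described next: Cyp3a11 and Cyp2d26, nearly silent without the inhibitor, Cyp4a32, silent likewise and the only tested member with an HNF1 motif, Cyp2c68, which was low beside cancer cells, and Cyp1a1, which was high in every co-culture. Each is the 250 bases before the transcript start that RefSeq (GRCm38.p6) gives, 5' to 3', with motif matches in capitals, less the bases nearest the start that GENCODE vM21 places in an exon of the gene (110 in Cyp3a11 and 49 in Cyp2d26). That start can differ from the gene bounds of the deposited table, which also span other transcripts: the Cyp1a1 stretch lies inside those bounds, in an intron of the longer transcript.
Cyp3a11, chr5:145879965-145880104, minus strand: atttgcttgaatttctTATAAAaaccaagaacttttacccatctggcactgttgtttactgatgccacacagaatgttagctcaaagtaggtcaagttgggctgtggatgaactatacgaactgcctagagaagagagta
Cyp2d26, chr15:82794295-82794495, minus strand: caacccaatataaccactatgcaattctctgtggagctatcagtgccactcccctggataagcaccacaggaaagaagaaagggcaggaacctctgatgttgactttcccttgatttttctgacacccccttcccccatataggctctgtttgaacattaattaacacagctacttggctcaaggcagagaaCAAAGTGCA
Cyp4a32, chr4:115600688-115600937, plus strand: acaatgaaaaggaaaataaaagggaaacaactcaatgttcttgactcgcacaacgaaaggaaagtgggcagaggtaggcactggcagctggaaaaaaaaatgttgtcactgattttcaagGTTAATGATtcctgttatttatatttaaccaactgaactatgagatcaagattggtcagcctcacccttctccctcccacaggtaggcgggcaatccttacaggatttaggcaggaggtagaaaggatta
Cyp2c68, chr19:39741102-39741351, minus strand: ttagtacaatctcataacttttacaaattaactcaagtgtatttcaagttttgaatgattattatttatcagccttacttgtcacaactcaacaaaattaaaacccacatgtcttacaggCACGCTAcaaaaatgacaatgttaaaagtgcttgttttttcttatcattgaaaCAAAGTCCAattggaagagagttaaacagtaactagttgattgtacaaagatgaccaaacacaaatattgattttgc
Cyp1a1, chr9:57697363-57697612, plus strand: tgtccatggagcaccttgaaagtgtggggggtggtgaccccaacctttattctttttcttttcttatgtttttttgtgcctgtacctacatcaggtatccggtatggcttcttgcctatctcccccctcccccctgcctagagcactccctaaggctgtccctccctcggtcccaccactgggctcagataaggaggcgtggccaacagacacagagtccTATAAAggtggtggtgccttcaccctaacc
The motifs searched in the 300 bases from 250 before to 50 after the start were TATAAA on the given strand and, on both strands, CAAAGTNCA (an HNF4 motif), GTTAATNAT (an HNF1 motif), TTGCNNAA (a C/EBP site) and TNGCGTG (the core read by the aryl hydrocarbon receptor). In these promoters the HNF4 motif began 109 bases upstream in Cyp3a11 (among the exonic bases not shown), 58 in Cyp2d26 and 77 in Cyp2c68, the HNF1 motif 130 in Cyp4a32, and TATAAA 234 in Cyp3a11 and 30 in Cyp1a1. The receptor core appeared 130 bases upstream in Cyp2c68 on the opposite strand, and not in this window of Cyp1a1. RefSeq promoters were matched for 72 of 93 members and 18 of 21 tested ones. The HNF4 motif was in 14 of 72 members (19.4%) and in 1.64% of the 27025 genes with a promoter in the table, and TATAAA in 24 members (33.3%) and in 9.77% of those genes. The C/EBP site was in 17 members (23.6%) and in 12.2% of genes, the HNF1 motif in 2 members and 0.940% of genes, and the receptor core in 1 member and 5.84% of genes. Near-identical gene copies share promoter sequence, so these members are not independent. Of the tested members, the HNF4 motif was in Cyp2c68, Cyp2d26, Cyp3a11 and Cyp3a16.

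The first comparison set each co-culture against hepatocytes alone. The sterol hydroxylases Cyp27a1 and Cyp39a1, and Cyp1a1, Cyp3a13, Cyp4f13, Cyp4f17 and Cyp20a1, were higher beside cancer cells of both genotypes, and Cyp2c68, Cyp2s1, Cyp3a16 and Cyp2j5 were lower. By limma on log2(FPKM + 1), with Benjamini-Hochberg adjustment over 11395 genes, 7 of 21 members rose and 5 fell in WT co-culture, where 30.1% of all genes tested were called higher and 31.9% lower. In KO co-culture 9 rose and 4 fell, with 30.3% of all genes higher and 31.2% lower. Median log2 fold changes were 0.09 and 0.16 over the members, and 0.01 over all genes in both comparisons. Both comparisons share the hepatocytes cultured alone. Of the 21, 8 averaged under 1 FPKM over the 9 libraries without the inhibitor and were tested only through the other 7, so counts over the 21 are a description. Of the other 13, 7 rose and 3 fell in WT co-culture (median 0.43) and 9 rose and 2 fell in KO co-culture (median 0.49). Cyp2s1 and Cyp2c68 are among the falls in both comparisons. They averaged 2.07 and 6.42 FPKM alone, 0.628 and 0.752 in WT and 0.703 and 1.15 in KO co-culture. Hepatocytes alone thus raised their means over the 9 libraries, so the level that admitted them favoured a fall. Of those 8, 2 fell and 6 did not pass in each comparison. Marker lists moved in these comparisons as well, as the sums above give them, and their part in the result was not tested.

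Among sterol enzymes, Cyp27a1 (ENSMUSG00000026170, chr1:74713574-74737892, plus strand, GRCm38), the mitochondrial hydroxylase that opens the alternative bile acid pathway, measured 7.36, 7.12 and 8.06 FPKM alone, 18.3, 20.5 and 20.0 in WT and 19.4, 19.6 and 19.9 in KO co-culture. Each co-culture library was above each library of hepatocytes alone, and the log2 fold change was 1.28 ± 0.07 (SE) in both comparisons (limma adjusted p = 9.83e-10 and 9.74e-10). Cyp39a1 (ENSMUSG00000023963, chr17:43667425-43751431, plus strand), an oxysterol hydroxylase of bile acid synthesis, measured 14.7, 14.7 and 15.4 FPKM alone, 24.9, 18.1 and 19.2 in WT and 21.0, 20.1 and 23.1 in KO co-culture. Its groups did not overlap with hepatocytes alone, and it rose by 0.43 ± 0.09 and 0.49 ± 0.09 on the log2 scale. Cyp7b1, another oxysterol hydroxylase of bile acid synthesis, did not exceed 0.0556 FPKM in any library.

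Among enzymes of foreign compounds, Cyp3a13 (ENSMUSG00000029727, chr5:137892932-137921619, minus strand), a drug-oxidising Cyp3a member, measured 14.7, 14.4 and 14.2 FPKM alone, 49.8, 42.1 and 43.8 in WT and 60.5, 54.2 and 58.9 in KO co-culture. It rose by 1.58 ± 0.06 and 1.93 ± 0.06 on the log2 scale (limma adjusted p = 4.85e-12 and 6.92e-13). The table also lists Gm15502 on the same strand over Cyp3a13, at group means of 0.724 FPKM alone and 6.01 and 4.27 in the co-cultures, so fragments shared by both could have been counted to either. Cyp1a1 (ENSMUSG00000032315, chr9:57687928-57703824, plus strand), the classical target of the aryl hydrocarbon receptor, measured 2.54, 2.11 and 2.30 FPKM alone, 11.3, 9.73 and 9.71 in WT and 8.66, 8.51 and 7.83 in KO co-culture. The co-culture libraries were all above the others, with log2 fold changes of 1.76 ± 0.06 and 1.49 ± 0.06 (limma adjusted p = 4.11e-12 and 2.51e-11). Its neighbour Cyp1a2, at 0.217 FPKM alone and 0.300 and 0.512 in the co-cultures, did not pass (adjusted p = 0.559 and 0.0576), although without KO co-culture replicate 2 the second value became 0.0178.

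Among the others, Cyp4f13, of a subfamily that hydroxylates leukotrienes and fatty acids, rose from 3.56 ± 0.275 FPKM alone to 7.84 ± 0.313 and 7.99 ± 0.154 (log2 fold change 0.96 ± 0.06 and 0.98 ± 0.06). Cyp4f17 rose by 0.61 ± 0.13 and 0.57 ± 0.13, and Cyp20a1 by 0.49 ± 0.04 and 0.52 ± 0.04. In KO co-culture Cyp4f16 rose by 0.19 ± 0.06 and Cyp4v3, a fatty acid hydroxylase, by 0.23 ± 0.09, with overlapping libraries for Cyp4v3 only. The first call was lost without replicate 3 of hepatocytes alone (adjusted p = 0.0608), and the second without any of 5 libraries, namely each replicate of hepatocytes alone and KO co-culture replicates 1 and 3 (0.0538 to 0.150). In WT co-culture neither passed, at 0.10 ± 0.06 and 0.10 ± 0.09, and the difference between genotypes did not pass for either.

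The members that fell were a different set. Cyp2c68 (ENSMUSG00000074882, chr19:39688834-39741054, minus strand), of the drug- and arachidonate-oxidising Cyp2c subfamily, measured 5.13, 6.22 and 7.91 FPKM alone, 0.900, 0.581 and 0.775 in WT and 1.51, 0.714 and 1.22 in KO co-culture. It fell by 2.07 on the log2 scale (SE 0.17) in WT and by 1.79 (SE 0.17) in KO co-culture (limma adjusted p = 7.01e-08 and 3.64e-07). Its near copy Cyp2c67, untested, went from 1.29 ± 0.280 FPKM to 0.157 ± 0.151 and 0.157 ± 0.0396. Reads from such copies may be split between them by the counting, so the pair is uncertain. Cyp2s1 (ENSMUSG00000040703, chr7:25802475-25816913, minus strand), a P450 mostly found outside the liver, measured 2.13, 2.31 and 1.76 FPKM alone, 0.666, 0.694 and 0.522 in WT and 0.479, 0.902 and 0.729 in KO co-culture, and fell by 0.91 (SE 0.09) and 0.85 (SE 0.09). Cyp3a16, a Cyp3a member of young liver, fell by 0.90 (SE 0.14) and 0.77 (SE 0.14) from 1.59 ± 0.181 FPKM. Cyp2j5, an epoxygenase of arachidonic acid, fell by 0.62 (SE 0.11) and 0.31 (SE 0.11), the latter not without replicate 3 of hepatocytes alone or KO co-culture replicates 1 or 2 (adjusted p = 0.0589 to 0.125). Cyp2j6, a relative, fell by 0.22 (SE 0.06) in WT co-culture and did not pass in KO co-culture, at 0.02 ± 0.06.

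Between the co-cultures without the inhibitor, few members differed by the genotype of the cancer cells. In KO against WT co-culture 2 of 21 members rose and 1 fell, where 1.65% of all genes tested were higher and 1.34% lower. Cyp3a13 was higher beside KO cells by 0.35 ± 0.06 on the log2 scale (limma adjusted p = 0.00332), with all 3 KO libraries, from 54.2 FPKM, above the highest WT library, at 49.8. Cyp2j6 was higher by 0.25 ± 0.06 (adjusted p = 0.0376), at 14.4, 12.6 and 12.1 FPKM beside WT and 16.1, 14.5 and 16.1 beside KO cells. Cyp1a1 was lower by 0.27 (log2 fold change -0.27, SE 0.06, adjusted p = 0.0314). When the 6 libraries alone entered the fit, none of the 3 passed (adjusted p = 0.232 for Cyp3a13, 0.395 for Cyp2j6 and 0.343 for Cyp1a1), and 4 members had an unadjusted p under 0.05. The Cyp2j6 call was also lost without WT replicates 2 or 3 or KO replicates 1 or 3 (0.111 to 0.145), and the Cyp1a1 call without WT replicate 1 or any KO replicate (0.0593 to 0.127).

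**Figure D3:**
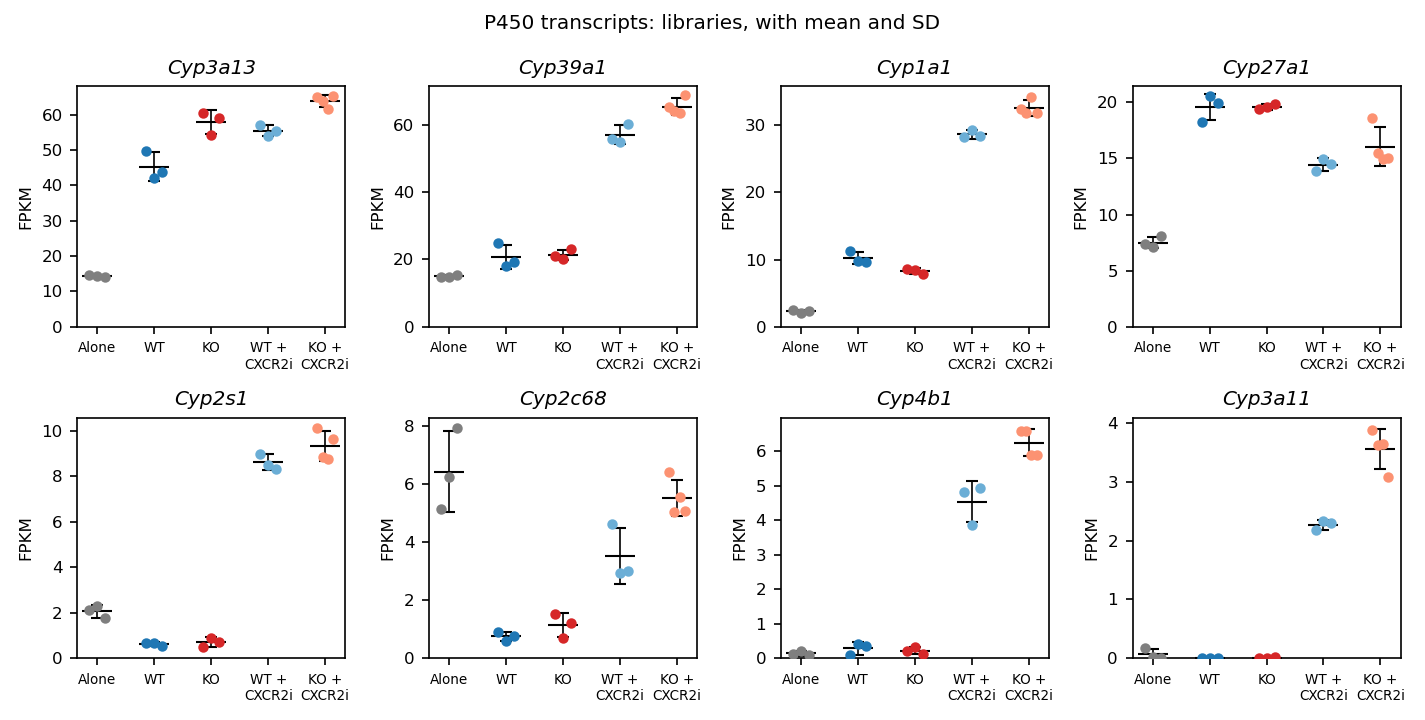
FPKM of 8 members in each library (points), with the group mean (horizontal bar) and SD (error bars), on linear axes that start at 0. Cyp3a13 and Cyp27a1 are higher in all co-cultures than in hepatocytes alone, and Cyp2s1 is lowest in the co-cultures without the inhibitor. Cyp2c68 has its highest mean in hepatocytes alone, where its libraries overlap those of the KO co-culture with the inhibitor. Cyp4b1 and Cyp3a11 lie near 0 outside the libraries with the inhibitor.

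The inhibitor was compared with no inhibitor beside each genotype, 2 comparisons that share no library. Most expressed members were higher with it. Beside WT cells 17 of 21 members rose and 2 fell, where 33.5% of all genes tested were higher and 33% lower. Beside KO cells 18 rose and 2 fell, with 34.8% of all genes higher and 34.7% lower. Median log2 fold changes were 1.12 and 1.43 over the members, and -0.01 over all genes in both comparisons. The 8 members under 1 FPKM over the 9 libraries without the inhibitor entered the test through the inhibitor libraries. They were Cyp4b1, Cyp2j5, Cyp4f14, Cyp4a32, Cyp3a11, Cyp1a2, Cyp2d26 and Cyp3a16, and the level that admitted them favoured a rise. The other 13 hold the count that the filter did not set: 9 rose and 2 fell beside WT cells (median 0.29), and 10 rose and 2 fell beside KO cells (median 0.27). Hepatocyte markers moved alongside: Alb averaged 24.3 and 27.8 FPKM in the WT and KO co-cultures and 335 and 461 with the inhibitor. The part of the marker change in the P450 result was not tested.

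**Figure D4:**
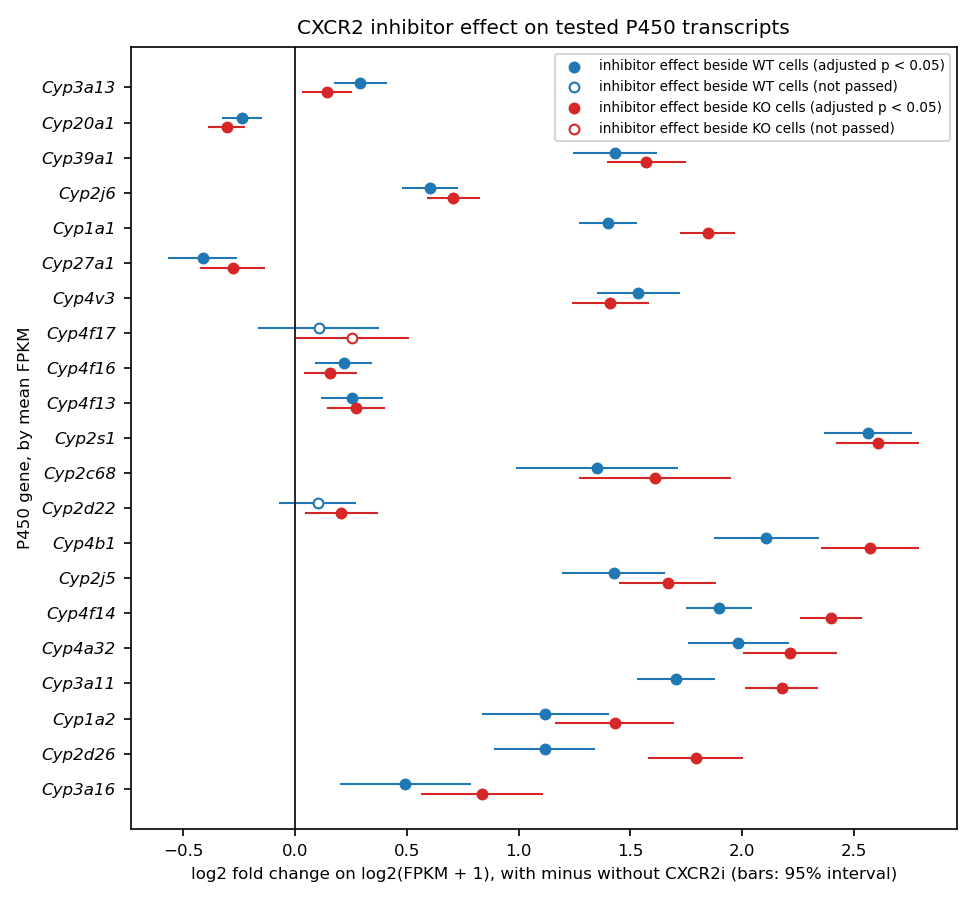
Log2 fold change of the 21 tested members with against without the inhibitor, on the log2(FPKM + 1) scale, beside WT (blue) and KO (red) cells; bars are 95% intervals and open symbols did not pass at an adjusted p of 0.05. Cyp20a1 and Cyp27a1 lie below 0 beside both genotypes, Cyp2s1 has the highest estimate beside both (with Cyp4b1 within the SE beside KO cells), and the KO interval lies wholly above the WT interval for Cyp1a1, Cyp3a11, Cyp4b1, Cyp4f14 and Cyp2d26, of which Cyp3a11 and Cyp4b1 did not pass the test of the difference (limma adjusted p = 0.0739 and 0.222).

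Of the sterol enzymes, Cyp39a1 rose and Cyp27a1 fell. Cyp39a1 measured 55.9, 55.0 and 60.2 FPKM with the inhibitor beside WT cells and 65.3, 64.0, 63.5 and 68.8 beside KO cells, all far above the highest co-culture library without it, at 24.9. Its log2 fold changes were 1.43 ± 0.09 and 1.57 ± 0.08 (limma adjusted p = 2.30e-09 and 3.26e-10). Cyp27a1 measured 13.9, 15.0 and 14.5 FPKM beside WT cells and 18.6, 15.5, 15.0 and 15.1 beside KO cells, below every co-culture library without the inhibitor of the same genotype, and fell by 0.41 (SE 0.07) and 0.28 (SE 0.07). Cyp20a1 fell too, by 0.24 (SE 0.04) and 0.31 (SE 0.04), from 45.6 ± 1.19 to 38.5 ± 0.139 FPKM beside WT and from 46.4 ± 0.464 to 37.4 ± 2.01 beside KO cells.

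Of the Cyp1 family, Cyp1a1 measured 28.2, 29.3 and 28.3 FPKM beside WT cells and 32.4, 31.8, 34.2 and 31.8 beside KO cells with the inhibitor, and rose by 1.40 ± 0.06 and 1.85 ± 0.06 (limma adjusted p = 5.21e-11 and 9.49e-13). Of the 2 tested Cyp1 members it alone passed both in co-culture and with the inhibitor. Cyp1a2, a main P450 of adult liver, measured 1.44, 1.92 and 2.12 FPKM beside WT cells and 2.91, 2.91, 3.67 and 2.75 beside KO cells, and rose by 1.12 ± 0.13 and 1.43 ± 0.12. Untested Cyp1b1 averaged 0.999 FPKM alone, 0.359 and 0.548 in the co-cultures and 1.42 and 1.31 with the inhibitor. Unlike Cyp1a1, it was thus lower in the co-cultures without the inhibitor than in hepatocytes alone.

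Of the Cyp2 family, Cyp2s1 measured 8.99, 8.51 and 8.33 FPKM beside WT cells and 10.1, 8.83, 8.74 and 9.65 beside KO cells, where no co-culture library without the inhibitor exceeded 0.902. Its log2 fold changes, 2.56 ± 0.09 and 2.61 ± 0.09, were the largest estimates of the 21 tested members on the log2(FPKM + 1) scale, with Cyp4b1 (2.57 ± 0.10) within the SE beside KO cells. By ratios of group means the order differed: beside WT cells Cyp4b1 was at 15.8 times and Cyp2s1 at 13.7 times its level without the inhibitor. Cyp3a11, Cyp4a32 and Cyp4f14, nearer 0 without the inhibitor, had larger ratios than either. Gm45226 and Gm26707 lie antisense to Cyp2s1, at group means of at most 1.22 and 0.265 FPKM, and without stated strandedness their fragments cannot be told from those of Cyp2s1. Cyp2c68 measured 4.62, 2.93 and 3.01 FPKM beside WT and 6.39, 5.03, 5.56 and 5.06 beside KO cells, and rose by 1.35 ± 0.17 and 1.61 ± 0.16. Cyp2j5 rose by 1.42 ± 0.11 and 1.67 ± 0.10 to 2.47 ± 0.181 and 4.09 ± 0.414 FPKM, and Cyp2j6 by 0.60 ± 0.06 and 0.71 ± 0.05. Cyp2d26 rose by 1.12 ± 0.11 and 1.79 ± 0.10. Cyp2d22 did not pass beside WT cells, at 0.10 ± 0.08 (adjusted p = 0.281, and 0.0435 without WT co-culture replicate 2), and rose by 0.21 ± 0.08 beside KO cells, a call lost without KO co-culture replicates 2 or 3 or KO inhibitor replicates 1 or 2 (0.0535 to 0.0947) and after quantile normalization (0.414).

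Of the Cyp3 family, Cyp3a11 (ENSMUSG00000056035, chr5:145854426-145879964, minus strand), the main drug-oxidising Cyp3a of adult mouse liver and a pregnane X receptor target, measured 0.172, 0.0246 and 0 FPKM alone, 0, 0 and 0.00937 in WT and 0, 0 and 0.0217 in KO co-culture. With the inhibitor it measured 2.18, 2.33 and 2.30 FPKM beside WT cells and 3.88, 3.63, 3.65 and 3.09 beside KO cells. The 9 libraries without the inhibitor held 20 of its fragments in all and the 7 with it 2043. Its log2 fold changes of 1.71 ± 0.08 and 2.18 ± 0.08 on the log2(FPKM + 1) scale understate the ratio, since the pseudocount of 1 exceeds the level without the inhibitor. Cyp3a16 rose by 0.49 ± 0.14 and 0.84 ± 0.13, the first not after quantile normalization (adjusted p = 0.421). Untested Cyp3a44 and Cyp3a25 averaged 1.28 and 0.466 FPKM beside WT and 2.36 and 0.600 beside KO cells with the inhibitor, against at most 0.161 and 0.0342 in the groups without it. Cyp3a13, already high, rose by 0.29 ± 0.06 beside WT cells and by 0.14 ± 0.05 beside KO cells, the latter not without KO co-culture replicate 2 or KO inhibitor replicates 1 or 4 (adjusted p = 0.0554 to 0.144) or after rescaling without the 50 highest and the mitochondrial genes (0.0747). Gm15502, which overlaps it, averaged 10.8 and 14.8 FPKM in the same groups. Fragments may be split among the near-identical Cyp3a copies, so the level of each is uncertain.

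Of the Cyp4 family, Cyp4b1 (ENSMUSG00000028713, chr4:115624725-115647723, minus strand), which acts on fatty acids and some plant toxins, measured 0.0826, 0.421 and 0.360 FPKM in WT and 0.218, 0.315 and 0.123 in KO co-culture. With the inhibitor it measured 4.81, 3.85 and 4.94 FPKM beside WT cells and 6.58, 6.59, 5.90 and 5.90 beside KO cells, and rose by 2.11 ± 0.11 and 2.57 ± 0.10. Cyp4b1, Cyp4a32 and Cyp4f14 entered the test through the inhibitor libraries, so the level that admitted them favoured a rise. Cyp4a32, of a subfamily of fatty acid hydroxylases under control of PPAR alpha, went from 0.0561 ± 0.0720 to 3.20 ± 0.615 FPKM beside WT and from 0.105 ± 0.0967 to 4.12 ± 0.365 beside KO cells, with log2 fold changes of 1.98 ± 0.11 and 2.21 ± 0.10. Cyp4f14, a leukotriene hydroxylase of liver, went from 0.0576 ± 0.0390 to 2.93 ± 0.146 and from 0.0837 ± 0.0343 to 4.71 ± 0.323 FPKM (1.90 ± 0.07 and 2.40 ± 0.06). Cyp4v3 rose by 1.53 ± 0.09 and 1.41 ± 0.08 to 18.6 ± 0.970 and 18.7 ± 0.858 FPKM. The other Cyp4f members, expressed throughout, moved little: Cyp4f13 rose by 0.26 ± 0.06 and 0.27 ± 0.06 and Cyp4f16 by 0.22 ± 0.06 and 0.16 ± 0.06, the last value not without KO co-culture replicate 1 or KO inhibitor replicate 4 (0.0650 and 0.0653), nor after quantile normalization, after the rescaling or with the replicate block (0.0525 to 0.0792). Cyp4f17 did not pass, at 0.11 ± 0.13 and 0.26 ± 0.12 (adjusted p = 0.473 and 0.0670), and the second value passed without KO co-culture replicate 3 or KO inhibitor replicate 3 (0.0223 to 0.0435).

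Untested members were compared by overlap alone. Of the 11 with a group mean of at least 0.5 FPKM, 8 were higher in each of the 7 inhibitor libraries than in any of the 9 others (Cyp1b1, Cyp2c55, Cyp2c65, Cyp2d9, Cyp2d10, Cyp3a25, Cyp3a44 and Cyp4f15), and Cyp2c23, Cyp2c67 and Cyp2t4 overlapped. All of these 11 but Cyp1b1, Cyp2c67 and Cyp2t4 reached 0.5 FPKM only in a group with the inhibitor, so the level that admitted them favoured that direction, and of those 3 only Cyp1b1 was higher. Among 1095 other protein-coding genes of the same range, 17.5% were higher and 12.3% lower in that sense. Of the 39 members below that range, 2 were higher (Cyp17a1, a steroid hydroxylase, and Cyp2j9), against 2.38% higher and 1.63% lower of 5515 other genes. Cyp2d9 had 1 fragment in the 9 libraries without the inhibitor and 305 in the 7 with it, at 0.643 ± 0.393 FPKM beside WT and 1.05 ± 0.151 beside KO cells. Cyp2d10, with 15 and 296 fragments, averaged 0.933 ± 0.381 and 1.62 ± 0.308 FPKM. Cyp2c65 averaged 0.495 FPKM alone, 0.0877 and 0.0659 in the co-cultures and 0.925 and 1.65 with the inhibitor. Cyp2t4 went the other way, from 0.617 and 0.644 FPKM in the co-cultures to 0.288 and 0.298, and lies antisense to Egln2, which averaged 38.0 and 39.9 and then 27.6 and 29.1 FPKM. Of 62 members with means under 0.1 FPKM in all 3 groups without the inhibitor, 5 averaged at least 0.5 FPKM in both groups with it (8.06%, namely Cyp2c55, Cyp2d9, Cyp2d10, Cyp3a11 and Cyp4f14), against 0.528% of 9464 other protein-coding genes.

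With the inhibitor present, some members were higher beside KO than beside WT cells. In KO against WT co-culture with the inhibitor 7 of 21 members passed, each higher, where 1.66% of all genes tested were higher and 0.649% lower. The median log2 fold change was 0.30 over the members and 0.00 over all genes. The 7 were Cyp2d26 (0.74 ± 0.10), Cyp2j5 (0.55 ± 0.10), Cyp4f14 (0.54 ± 0.06), Cyp1a2 (0.52 ± 0.12), Cyp3a11 (0.48 ± 0.08), Cyp2j6 (0.35 ± 0.05) and Cyp2d22 (0.33 ± 0.08), with limma adjusted p-values from 0.000588 for Cyp4f14 to 0.0406 for Cyp1a2. Of these, 5 belong to the 8 members that entered the test through the inhibitor libraries, and 2 to the other 13. Cyp2d26 measured 1.27, 1.72 and 1.34 FPKM beside WT and 3.62, 2.85, 3.02 and 2.82 beside KO cells, with no overlap. With a pseudocount of 0.1, only Cyp2j6 passed, while limma's voom on the recovered fragments passed 8 members. The Cyp1a2 call was lost on leaving out any of the 7 libraries (0.0558 to 0.215), that of Cyp2d22 without any of them but KO inhibitor replicate 3 (0.0627 to 0.132), and that of Cyp2j5 without WT inhibitor replicate 2 (0.0535). Summed hepatocyte markers were 1027 to 1039 FPKM beside WT and 1302 to 1358 beside KO cells in these libraries, and their part in the result was not tested.

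Whether the inhibitor effect itself differed by genotype was tested as an interaction. It was larger beside KO cells for 3 of 21 members, where 0.535% of all genes tested had a larger effect and 0.281% a smaller one: Cyp2d26 (difference 0.67 ± 0.14, limma adjusted p = 0.0468), Cyp4f14 (0.50 ± 0.09, adjusted p = 0.0313) and Cyp1a1 (0.45 ± 0.08, 0.0309). For Cyp1a1 the difference joined a lower level beside KO cells without the inhibitor (8.33 against 10.2 FPKM) to a level that did not pass as different with it (32.5 against 28.6 FPKM, adjusted p = 0.153). The libraries with the inhibitor did not overlap, however. That comparison passed in limma when only its libraries were fitted (adjusted p = 0.0490) and by voom (0.0360). The one without the inhibitor did not pass when only its libraries were fitted (limma adjusted p = 0.343). The 3 interaction calls are close to the threshold. Cyp1a1 was lost without any of 8 libraries (KO co-culture replicates 1 or 3, any WT inhibitor replicate, KO inhibitor replicates 1, 2 or 3), at adjusted p-values of 0.0555 to 0.0953. Cyp4f14 was lost without any of 10 (WT co-culture replicate 3, any KO co-culture or WT inhibitor replicate, KO inhibitor replicates 2, 3 or 4), at 0.0540 to 0.0969. Cyp2d26 was lost without any of 11 (any WT co-culture or KO inhibitor replicate, KO co-culture replicates 1 or 3, WT inhibitor replicates 1 or 3), at 0.0658 to 0.132. By voom on recovered fragments, which compares ratios without a pseudocount of 1 FPKM, the differences were 0.47 for Cyp1a1 (adjusted p = 0.0168), 0.76 for Cyp2d26 (0.770) and 0.13 for Cyp4f14 (0.974). Cyp4f14 and Cyp2d26 rested on 28 and 51 fragments over the 9 libraries without the inhibitor. The difference did not pass for Cyp3a11 (0.47 ± 0.11, adjusted p = 0.0739) or Cyp4b1 (0.47 ± 0.15, adjusted p = 0.222). For Cyp39a1 and Cyp2s1, whose effects were large, the interaction did not pass, at 0.14 (95% interval -0.12 to 0.40) and 0.04 (-0.23 to 0.31).

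Against hepatocytes alone, the co-cultures with the inhibitor held more of most tested members. Beside WT cells 18 of 21 rose and 2 fell, where 32.1% of all genes tested were higher and 34.7% lower, and beside KO cells 19 rose and the other 2 did not pass, with 33.3% of all genes higher and 36.1% lower. Of the 21, 8 entered the test through the inhibitor libraries, so the level that admitted them favoured a rise and these counts are a description. Of the other 13, 11 rose and 1 fell beside WT cells (median log2 fold change 0.86). Beside KO cells 12 of these 13 rose and 0 fell (median 0.998). Both comparisons share the hepatocytes cultured alone with those above. On the log2(FPKM + 1) scale Cyp1a1 had the largest estimates, at 3.16 ± 0.06 and 3.34 ± 0.06. By ratios of group means beside WT cells it was at 12.3 times and Cyp4f14, near 0 alone, at 46.3 times its level in hepatocytes alone. Cyp4a32, at 0.0212 FPKM alone and 3.20 beside WT cells with the inhibitor, had a larger ratio still. Cyp39a1 rose by 1.86 ± 0.09 and 2.06 ± 0.08 and Cyp2s1, which had fallen in co-culture, by 1.65 ± 0.09 and 1.75 ± 0.09. Cyp27a1 remained above hepatocytes alone, by 0.86 ± 0.07 and 0.998 ± 0.07. Cyp2c68 fell by 0.72 (SE 0.17) beside WT cells and did not pass beside KO cells (log2 fold change -0.18 ± 0.16). Cyp3a16 fell by 0.41 (SE 0.14) beside WT cells, a call lost without replicate 1 of hepatocytes alone or WT inhibitor replicates 1 or 2 (adjusted p = 0.0599 to 0.0670), and did not pass beside KO cells (0.07 ± 0.13).

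Genes that serve or control P450 enzymes were taken from lists chosen with earlier results of these data known. Of 9 tested electron transfer partners, 3 rose and 4 fell in WT co-culture and 2 rose and 3 fell in KO co-culture, while 6 rose and 3 fell with the inhibitor beside each genotype. Over all genes tested, as above, 30.1% and 30.3% were higher and 31.9% and 31.2% lower in WT and KO co-culture, and 33.5% and 34.8% were higher and 33% and 34.7% lower with the inhibitor beside WT and KO cells. Por, the oxidoreductase that feeds microsomal P450s, did not pass in either co-culture and rose with the inhibitor by 0.63 ± 0.05 and 0.72 ± 0.05, from 27.1 to 42.4 and from 26.9 to 45.1 FPKM. Cyb5a, cytochrome b5, rose by 1.45 ± 0.06 and 1.37 ± 0.06. Cyb5r1, a cytochrome b5 reductase, did the reverse: it rose by 2.43 ± 0.03 and 2.39 ± 0.03 in co-culture and fell by 1.59 (SE 0.03) and 1.51 (SE 0.03) with the inhibitor. Of 12 genes of haem synthesis and breakdown, 3 rose and 5 fell in WT co-culture and 4 rose and 3 fell in KO co-culture, while 6 rose and 2 fell with the inhibitor beside WT cells, and 5 rose and 1 fell beside KO cells.

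Of 21 tested transcriptional regulators of P450 genes, 14 rose and 2 fell with the inhibitor beside WT cells (median 0.50) and 15 rose and 3 fell beside KO cells (median 0.64), where 33.5% and 34.8% of all genes tested were higher, 33% and 34.7% lower, and the median was -0.01. Nr0b2 and Vdr averaged at most 0.166 and 0.978 FPKM in the groups without the inhibitor. With it, Nr0b2 averaged 4.63 and 7.91 FPKM and Vdr 2.74 and 2.72 beside WT and KO cells. Both entered the test through the inhibitor libraries, so the level that admitted them favoured a rise. In co-culture without the inhibitor, 9 rose and 7 fell beside WT cells and 8 rose and 7 fell beside KO cells. Over all genes tested, 30.1% and 30.3% were higher and 31.9% and 31.2% lower in those 2 comparisons. Nr1i2, the pregnane X receptor, rose with the inhibitor by 1.45 ± 0.10 and 1.78 ± 0.09, Ppara by 1.51 ± 0.10 and 1.76 ± 0.09, Cebpa by 1.35 ± 0.06 and 1.47 ± 0.06, and Hnf4a by 0.46 ± 0.04 and 0.83 ± 0.04. Nr1h4, the bile acid receptor, fell by 1.44 (SE 0.04) and 1.24 (SE 0.04) in co-culture and rose by 1.94 ± 0.04 and 2.01 ± 0.04 with the inhibitor. Nr1i3, the constitutive androstane receptor, averaged at most 0.0177 FPKM in any group. Ahr, which controls Cyp1a1, fell by 0.83 (SE 0.10) and 0.81 (SE 0.10) in co-culture, where Cyp1a1 rose, and rose by 0.50 ± 0.10 and 0.60 ± 0.10 with the inhibitor, where Cyp1a1 rose too. Of 6 other targets of that receptor 2 were tested, and Gsta1 did not pass in these comparisons. Tiparp fell by 0.77 (SE 0.07) and 0.86 (SE 0.07) in co-culture and rose by 1.34 ± 0.07 and 1.56 ± 0.07 with the inhibitor.

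Of the P450 genes whose names lie outside the rule, only Cyp51, the sterol demethylase of cholesterol synthesis, was tested. It averaged 22.8 FPKM alone, 8.96 and 8.85 in WT and KO co-culture, and 21.4 and 22.7 with the inhibitor. It fell by 1.26 (SE 0.04) and 1.27 (SE 0.04) in co-culture and rose by 1.17 ± 0.04 and 1.27 ± 0.04 with the inhibitor. Cyp4a12a, a fatty acid hydroxylase, averaged 1.41 FPKM alone, 0.0572 and 0.0511 in the co-cultures and 1.13 and 1.22 with the inhibitor, and stayed under the level tested.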

How the data were processed

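Per the labels' protocols, the RNeasy mini kit yielded the RNA, and Novogene sequenced it. HISAT2 and GRCm38 (mm10) are named in the submitters' processing notes. Which HISAT2 version, counter, annotation and strand setting applied is not given in the sources used here. FPKM values per gene were deposited by the authors, and with the gene lengths in the same table they gave back whole fragments, hence the depth per library. Groups followed the labels. Values were tested as log2(FPKM + 1) for genes with a mean of at least 1 FPKM over the 16 libraries, so a fold change understates the change of low genes. The test was limma 3.58.1 in R 4.3.3, with an intensity trend, all 5 groups in 1 fit (11 residual degrees of freedom) and Benjamini-Hochberg adjustment over 11395 genes, 10226 of them protein coding, at a threshold of 0.05. Tables were made with pandas 2.3.3 and numpy 2.4.6, and the fit was tested on simulated data. All tested members were named, members with a group mean of at least 0.5 FPKM were named without a test, and the others were counted, apart from those said to be chosen by their values. The members and lists were chosen with earlier results of these data known. No libraries had identical values. Alternatives were a pseudocount of 0.1, no filter, quantile normalization, rescaling without mitochondrial and the 50 highest genes, fits of only the libraries compared, a replicate block, voom on recovered fragments, no intensity trend, and leaving out each library. Promoters came from RefSeq (GRCm38.p6). Intervals use limma's moderated degrees of freedom. The level given for 3 fragments covers counting error only, since PCR copies are not independent molecules.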

Additional observations from a re-analysis of the deposited data

Results flagged for a closer look

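In the KO co-culture with the inhibitor, 1 library stood apart for Cyp27a1: replicate 1 measured 18.6 FPKM and the other 3 libraries 15.0 to 15.5. The 21 tested members were checked in this group of 4 libraries, where chance alone marks about 5% of such groups.

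The inhibitor effect was larger beside KO than beside WT cells, on the log2(FPKM + 1) scale, by 0.45 for Cyp1a1, 0.50 for Cyp4f14 and 0.67 for Cyp2d26. The difference itself was tested as an interaction in limma. None of these differences passed with no filter or with the replicate block, and by voom only that of Cyp1a1 passed. Cyp4f14 and Cyp2d26 entered the test through the inhibitor libraries.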

How the results depend on the processing

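Over 189 values of tested members and their alternatives, 2718 of 2856 recomputed values kept their direction and their side of the threshold, 116 lost the call, 22 gained it and 0 changed direction while called. The 3 members with a different inhibitor effect by genotype became 1 with a pseudocount of 0.1, 1 by voom, 0 with no filter (12 of 71 at an unadjusted p under 0.05) and 0 with the replicate block (6 unadjusted). The 3 members that differed between KO and WT co-culture became 1 with no filter and 0 when only those libraries were fitted (4 unadjusted). The 7 that differed between them with the inhibitor became 1 with a pseudocount of 0.1. With no filter, 71 members were tested in place of 21, and the added ones averaged under 1 FPKM. For the inhibitor, those past the threshold went from 20 of 21 to 36 of 71 beside KO cells. Beside WT cells they went from 19 to 34 of the same totals. Against hepatocytes alone they went from 19 to 37 for KO and from 20 to 35 for WT co-culture with the inhibitor. The share of all genes called without a filter is not given here, so these counts are a description. Leaving out 1 library gave 0 to 2 members for the difference in effect (5 to 6 unadjusted where 0), 18 to 21 and 19 to 20 for the inhibitor beside KO and WT cells, 1 to 2 for KO against WT co-culture and 4 to 6 for the same with the inhibitor. Against hepatocytes alone it gave 12 to 13 for WT and 10 to 13 for KO co-culture, 19 to 20 for WT with the inhibitor and 19 in each case for KO with it. Apart from fewer or more genes and libraries in the fit, the cause of these shifts was not tested.

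Replicate numbers did not pair the libraries: over 30 same-numbered pairs the correlation of deviations ran from -0.300 to 0.270, with a median of 0.0104. With the replicate block the count was 2 for KO against WT co-culture and 5 for the same with the inhibitor. Depth limits members at or under 0.137 to 0.194 FPKM (3 fragments in a gene of 1 kb).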
